A study of Homo sapiens with 3 samples.

Results

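MATR3 clusters are the stretches of RNA from the MATR3 gene itself that were recovered with MATR3 protein by PAR-CLIP, a crosslinking and immunoprecipitation assay that uses a photoactivatable nucleoside. They were chosen as every cluster that the deposited tables assign to the gene name MATR3, and they numbered 79 of the 115227 clusters of the 3 libraries. Of these, 53 of 87230 clusters came from wild-type (WT) replicate 1, 26 of 27155 from WT replicate 2, and 0 of 842 from the MATR3 knockout (KO). The cells were HAP1, an established human line with a nearly haploid genome and a leukaemic origin, and the groups were 2 unmodified WT libraries, which the design calls independent, and 1 library from a purchased MATR3 KO line that served as the negative control. No other genetic change or drug is recorded for either group, and the labels do not say whether the KO line is a single clone. Per the labels' protocols, RNase T1 trimmed the RNA and the complexes were taken up on anti-FLAG beads, although no tag on MATR3 is recorded.

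Matrin-3, the product of MATR3, is an abundant nuclear protein with RNA recognition motifs and zinc fingers that binds pyrimidine-rich RNA, much of it in introns. It is known as a splicing regulator that works with polypyrimidine tract binding protein, and mutations in it are linked to motor neuron disease. In PAR-CLIP the cells incorporate 4-thiouridine, which after crosslinking is read as C, so T-to-C changes mark where protein touched RNA, and RNase T1 cuts RNA after G. A cluster is a group of overlapping reads that carries such changes.

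The MATR3 sequences recovered most strongly in both WT libraries are shown first, because clusters of both libraries overlapped there. These are the WT replicate 1 clusters of the 6 overlapping pairs that rank highest by the geometric mean of their reads. All are annotated as intronic and lie on the + strand of GRCh38 (hg38), and each is printed 5′ to 3′ with T for U. Capitals mark the stretch that the WT replicate 2 cluster of the ranked pair also covered. The last 26 nt of the second sequence, in lower case, were covered by a further WT replicate 2 cluster with 22 reads.
chr5:139308485-139308558: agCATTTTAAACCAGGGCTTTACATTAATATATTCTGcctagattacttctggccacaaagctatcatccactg
chr5:139308934-139309060: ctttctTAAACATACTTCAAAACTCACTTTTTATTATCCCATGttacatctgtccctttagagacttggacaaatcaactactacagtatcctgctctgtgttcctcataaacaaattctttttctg
chr5:139311095-139311151: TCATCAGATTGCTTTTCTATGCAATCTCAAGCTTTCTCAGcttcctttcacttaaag
chr5:139308846-139308894: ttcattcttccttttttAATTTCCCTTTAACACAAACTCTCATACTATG
chr5:139311152-139311190: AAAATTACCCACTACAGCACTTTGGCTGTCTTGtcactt
chr5:139306646-139306685: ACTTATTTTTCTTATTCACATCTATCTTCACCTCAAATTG
Reads are those of the whole clusters, not of the capital stretch alone. The first pair lay 34.4 kb from the start of the gene, with 292 reads in WT replicate 1 and 338 in WT replicate 2. The second had 345 and 159 reads, the third 208 and 220, and the fourth 190 and 215. The fifth had 175 and 158 reads, and the sixth, whose boundaries were identical in both libraries, had 263 and 105. In the first and second pairs the deposited modes of the clusters lay 50 and 58 nt apart, farther than the 35 and 37 nt in common. All 6 pairs lay between 32.5 and 37.1 kb into the gene. The WT replicate 1 clusters of the third and the fifth were directly adjacent. The WT replicate 2 cluster was the shorter one except in the sixth pair. All capital stretches end in G, the base after which RNase T1 cuts, and 100% of the WT replicate 2 reads ended in G in every pair but the sixth, where 84.8% did.

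Overlapping MATR3 sites were also found nearer the start of the gene, with fewer reads. The 3 printed next are further pairs from the first part of the gene, shown because both WT libraries gave the same 3′ end, and for the first 2 the same 5′ end. Capitals again mark the stretch covered in both.
chr5:139289822-139289852: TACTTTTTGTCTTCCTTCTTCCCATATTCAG
chr5:139283873-139283896: TTTTTCCCTTCTCATTCCATCTTG
chr5:139289552-139289579: tccatgTCTTCCTTCTACCAATCTAATG
The first, 15.7 kb into the gene, had 97 reads in WT replicate 1 and 69 in WT replicate 2, with 6 converted positions in each. The second, 9.77 kb into the gene, was the most unequal of the 3, with 14 and 57 reads. The third had 7 and 6 reads and shared its 3′ end, a G, with its partner.

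MATR3 RNA took a similar share of recovered reads in both WT libraries, although the number of clusters differed. Its clusters held 3199 of 2668797 cluster reads in WT replicate 1, which is 0.120% (95% Wilson interval 0.116 to 0.124%). In WT replicate 2 they held 2135 of 1558995 reads, which is 0.137% (0.131 to 0.143%). The mean was 0.128% ± 0.0121 (SD, n = 2) of reads, and the mean number of clusters was 39.5 ± 19.1 (SD, n = 2). These intervals hold for counting error alone, as no molecular identifiers are given. Total sequencing depth is unknown, since the tables hold only reads within called clusters.

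The KO library had no cluster in MATR3, among 842 clusters made of 224142 reads. At the WT replicate 1 share of all clusters, 0.512 MATR3 clusters would fall in a library of that size, and at the WT replicate 2 share 0.806 would, so a difference in cluster number was not detectable. By reads, the same WT shares would put 269 and 307 MATR3 reads among those of the KO library. KO clusters averaged 266 reads, against 30.6 and 57.4 in the WT libraries, so these reads correspond to about 1 KO cluster. No KO cluster lay within 200 kb on either side of the gene. Its nearest KO cluster on chromosome 5, where there were 37, lay 735 kb away in ETF1, a translation termination factor gene, and had 537 reads. A single KO library allows no test of the genotypes.

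The first MATR3 cluster lay 0.229 kb from the first start in WT replicate 1 but 9.77 kb from it in WT replicate 2, and in both libraries the clusters stopped well before the 3′ end. MATR3 spans chr5:139274101-139331677 in the RefSeq table (GRCh38.p14), 57.6 kb on the + strand, with one annotated start at the first base and a second 19.6 kb downstream, at position 139293740. WT replicate 1 had 18 clusters with 678 reads (21.2% of MATR3 reads) before the second start and 35 clusters with 2521 reads (78.8%) after it. In WT replicate 2, 6 clusters with 310 reads (14.5%) preceded it and 20 with 1825 reads (85.5%) followed, so both libraries had most of their MATR3 reads after it. Positions within the gene were compared by distance from the first start, and exon limits were not used here.

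**Figure D1:**
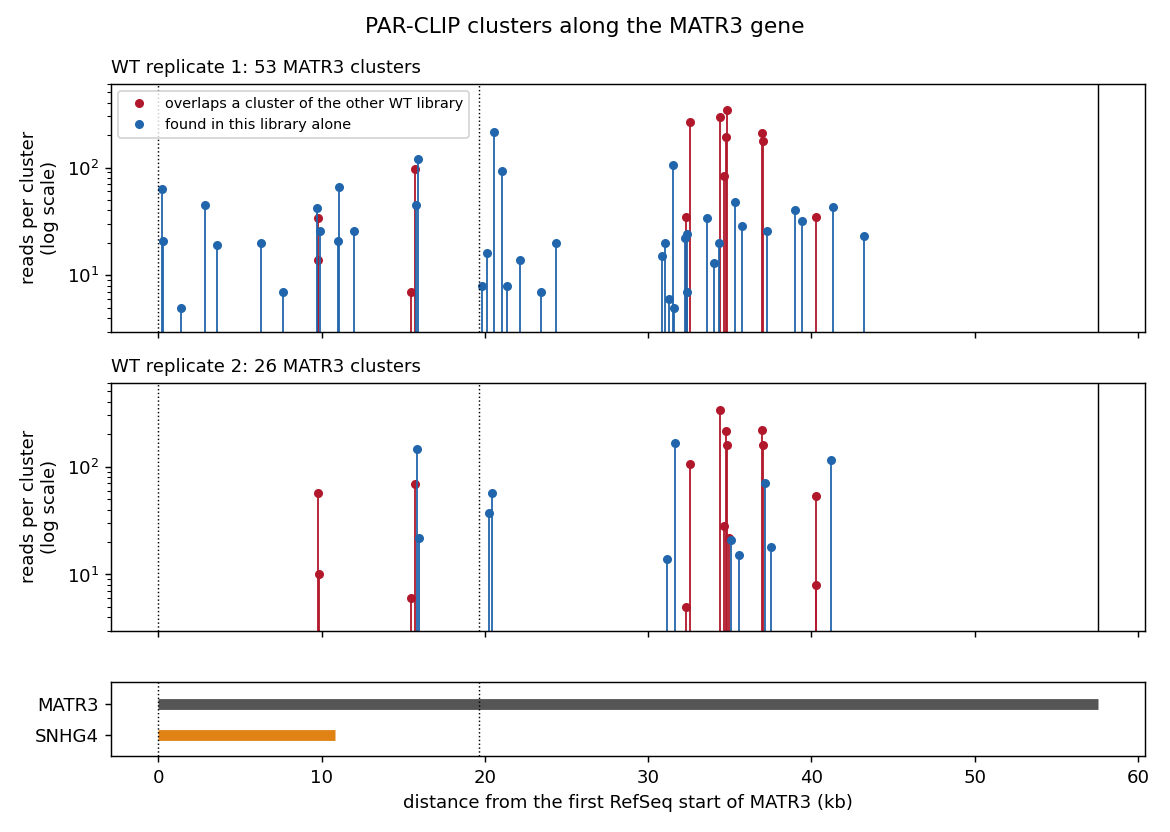
Position of each MATR3 cluster (x axis, kb from the first annotated start of the gene) against its reads (y axis, log scale) in the WT libraries, coloured by whether the cluster overlaps one of the other WT library. Dotted lines mark the annotated starts, the solid line marks the end of the gene, and bars below show MATR3 and SNHG4. The 3 tallest clusters of each library stand between 32.5 and 37.1 kb, and none lies beyond 43.3 kb.

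Most reads came from 1 stretch near the middle of the gene, noticed after the values were seen. With the gene divided into 10 equal bins, bins 6 and 7, from 28.8 to 40.3 kb, held 25 clusters and 2074 reads in WT replicate 1, which is 47.2% of its MATR3 clusters and 64.8% of its MATR3 reads. In WT replicate 2 they held 17 clusters and 1617 reads, 65.4% and 75.7%. Cluster density there was 2.17 per kb in WT replicate 1 and 1.48 per kb in WT replicate 2. Just before it, bin 5 held 2 clusters (27 reads) of WT replicate 1, while WT replicate 2 had 0. Bin 1 held 5 clusters (153 reads) of WT replicate 1 and again 0 of the other library. The libraries thus differed at the 5′ end of the gene and had the same bins on top.

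**Figure D2:**
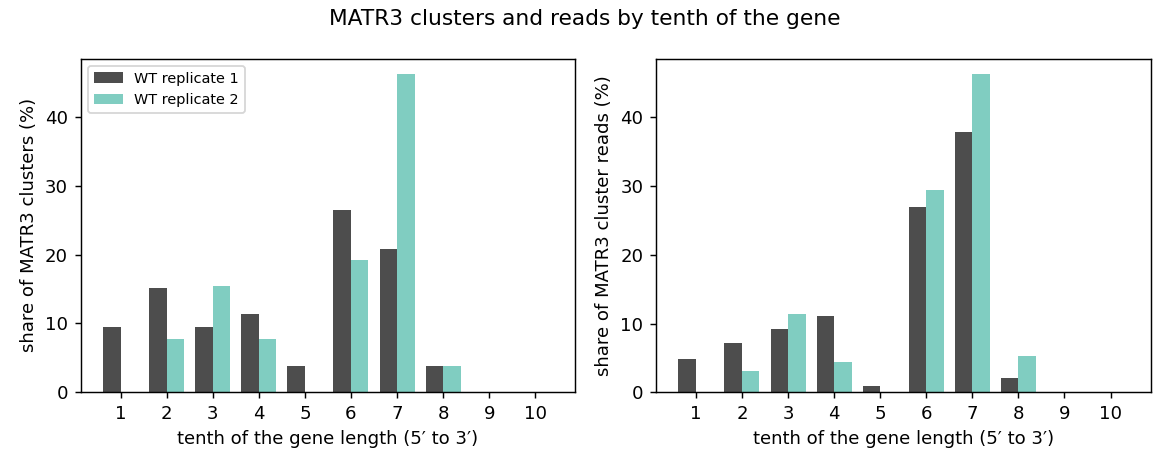
Share of MATR3 clusters (left) and of MATR3 cluster reads (right), in percent, in each of 10 equal bins of the gene length from 5′ to 3′, for WT replicate 1 (dark bars) and WT replicate 2 (light bars). Bins 6 and 7 together hold 64.8% and 75.7% of the reads, and bins 9 and 10 hold none in either library.

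The 3′ end of the gene lacked clusters in both libraries. The last MATR3 cluster ended 43.3 kb into the gene in WT replicate 1 and 41.2 kb into it in WT replicate 2. That leaves 14.3 kb (24.9% of the gene) and 16.4 kb (28.4%) without a cluster. By cluster midpoint, 1 of 53 MATR3 clusters (1.89%) and 0 of 26 lay in the last 25% of the gene, a limit chosen after the values were seen. Over all intronic clusters, 14.9% (WT replicate 1) and 14.8% (WT replicate 2) lay in the last 25% of their gene. Of the genes with at least 20 intronic clusters, 109 of 1065 (WT replicate 1) and 17 of 117 (WT replicate 2) had none there; MATR3 was among them in WT replicate 2 only. The median MATR3 cluster lay 53.6% and 59.98% along the gene, against 37.7% and 39.2% for all intronic clusters.

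One MATR3 cluster was annotated outside introns. It came from WT replicate 1 and was assigned to a start codon, at chr5:139293959-139293988, 219 nt after the second annotated start, and it had 8 reads of 1 distinct sequence with 2 converted positions. Its sequence is shown because it is the only exonic member, with the ATG in capitals.
chr5:139293959-139293988: agccgcctgatcggcggccgccATGttagg
This cluster had no overlapping partner in WT replicate 2 and held 0.250% of the MATR3 reads of its library.

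Neighbouring RNAs overlap MATR3, which makes some assignments uncertain. SNHG4, a long noncoding RNA that hosts small nucleolar RNAs, shares the first start and the strand of MATR3 and runs for 10.8 kb. Inside the SNHG4 interval lay 11 of the MATR3 clusters of WT replicate 1, with 296 reads, and 2 of those of WT replicate 2, with 67 reads. Without them the mean MATR3 share of reads was 0.121%. A further long noncoding RNA, LOC124901081, lies on the − strand, and SNORA74D, SNORA74A and the pseudogene RNA5SP195 lie inside the interval. Every cluster of the interval was on the + strand and named MATR3.

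Clusters sat close together within MATR3. The gap between neighbouring clusters had a median of 354.5 nt over 52 gaps in WT replicate 1 and 230 nt over 25 gaps in WT replicate 2. Even spacing over the whole gene would have put one cluster every 1.09 kb and 2.21 kb, which is a mean and not a median. Gaps under 100 nt numbered 14 and 8, and gaps over 1 kb numbered 14 and 6. The longest gaps overlapped each other, from 24.4 to 30.9 kb (6489 nt) for WT replicate 1 and from 20.5 to 31.2 kb (10694 nt) for WT replicate 2. A MATR3 cluster had its nearest cluster at a median of 125 nt and 95.5 nt, against 759 nt and 3183 nt for all intronic clusters. A neighbour within 500 nt was found for 41 of 53 MATR3 clusters (77.4%) and 25 of 26 (96.2%). Of all intronic clusters, 43.2% and 26.1% had one. These comparisons are not matched for cluster density. MATR3 had 0.921 and 0.452 clusters per kb, where the medians over all genes with a cluster and a RefSeq length were 0.102 and 0.0429.

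Reads were concentrated in a few MATR3 clusters. In WT replicate 1 the clusters ranged from 5 to 345 reads with a median of 26, where all intronic clusters had a median of 20. In WT replicate 2 they ranged from 5 to 338 reads with a median of 55, against 38. The 3 strongest clusters held 28.1% and 36.2% of MATR3 reads. Clusters with at least 100 reads numbered 9 in each library and held 59.8% and 76.0% of MATR3 reads, and such clusters made up 3.61% and 16.2% of all intronic clusters. Median length was 34 nt and 30 nt, and the clusters together covered 2071 nt and 829 nt, which is 3.6% and 1.44% of the gene.

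MATR3 clusters carried more converted positions than intronic clusters in general. At least 3 converted positions were seen in 34 of 53 MATR3 clusters of WT replicate 1, 64.2% (95% Wilson interval 50.7 to 75.7%), against 41.3% of all intronic clusters. In WT replicate 2 they were seen in 16 of 26, 61.5% (42.5 to 77.6%), against 25.3%. These MATR3 clusters held 89.0% and 89.9% of the MATR3 reads, whereas for all intronic clusters the shares were 63.4% and 39.4%. Distinct read sequences per cluster had a median of 5 in both libraries, against 3 for all intronic clusters, and so moved with the number of converted positions. The part of read number in this difference was not tested.

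The rate of conversion itself was no higher than in other introns. Of the T positions read in MATR3 clusters, WT replicate 1 had 7.39% (95% Wilson interval 7.14 to 7.65%) converted and WT replicate 2 had 7.71% (7.39 to 8.03%), a mean of 7.55% ± 0.225 (SD, n = 2). Over all intronic clusters the rates were 8.03%, above the WT replicate 1 interval, and 7.77%, inside that of WT replicate 2. The intervals count T events as independent, although each distinct MATR3 read sequence stood for 6.94 and 13.9 reads on average. They are therefore too narrow to judge these differences. The median share of a cluster's reads with a T-to-C change was 87.5% and 90.4% in MATR3, and 94.1% and 97.6% in all intronic clusters. Among the 6 strongest pairs the share ranged from 48.9% to 80% in WT replicate 1 and from 61.9% to 97.5% in WT replicate 2.

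MATR3 reads mostly ended in G, as did those of other + strand introns. Weighted by reads, the deposited fractions gave 71.3% of MATR3 reads of WT replicate 1 as ending in G, and 97.8% of those of WT replicate 2. The values were 73.2% and 94.98% for intronic clusters on the + strand. For intronic clusters on the − strand the same column gave 1.29% and 1.81%, although 81.0% and 96.1% of those cluster sequences end in G. Only + strand clusters are therefore compared here. The last base of the cluster was G in 40 of 53 MATR3 clusters (75.5%) and in 25 of 26 (96.2%).

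A larger share of MATR3 clusters than of all clusters was found in both WT libraries. Counting an overlap of at least 1 nt on the same strand, 15 of 26 MATR3 clusters of WT replicate 2 (57.7%, 95% Wilson interval 38.9 to 74.5%) met a cluster of WT replicate 1, against 19.5% of all clusters and 20.3% of intronic clusters of that library. In the other direction, 13 of 53 clusters of WT replicate 1 (24.5%, 14.9 to 37.6%) met one of WT replicate 2, against 6.0% of all clusters and 6.19% of intronic clusters. Both intervals lie above these background shares. However, the intervals count neighbouring clusters of 1 gene as independent, and the background shares are not matched for reads or spacing. Among the 125 genes with at least 20 clusters in each WT library, MATR3 ranked 2 in both directions. WAC, a gene of a nuclear adaptor protein, was above it in WT replicate 2 at 61.9%. The medians of these genes were 21.7% and 10.1%. WAC and the limit of 20 clusters were chosen after the values were seen.

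Shared MATR3 clusters had the higher median reads in both libraries. In WT replicate 1 the median was 97 reads in shared and 22.5 in unshared clusters, and in WT replicate 2 it was 57 and 37. Shared clusters held 55.6% and 68.1% of MATR3 reads. Of the clusters with at least 100 reads, 6 of 9 were shared in each library, while of all intronic clusters of that size 29.8% and 31.2% were. Of those with under 20 reads, 2 of 15 and 4 of 7 were shared, against 3.42% and 12.8% of intronic clusters of that size. The groups overlapped in reads, since unshared clusters reached 215 reads in WT replicate 1 and 167 in WT replicate 2.

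The 15 overlapping pairs differed in their limits more often than they matched. The same start was found in 5, the same end in 6 and both in 3, and the WT replicate 2 cluster lay wholly inside that of WT replicate 1 in 13. The stretch in common had a median of 28 nt and a range of 1 to 40 nt. The deposited modes of the paired clusters lay a median of 20 nt apart. Reads in the pairs had a Spearman rho of 0.66 and a Pearson r of 0.70 on the log2 scale over the 15 pairs, given as a description. Pairs share their libraries, and 2 clusters of WT replicate 1 enter 2 pairs each.

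**Figure D3:**
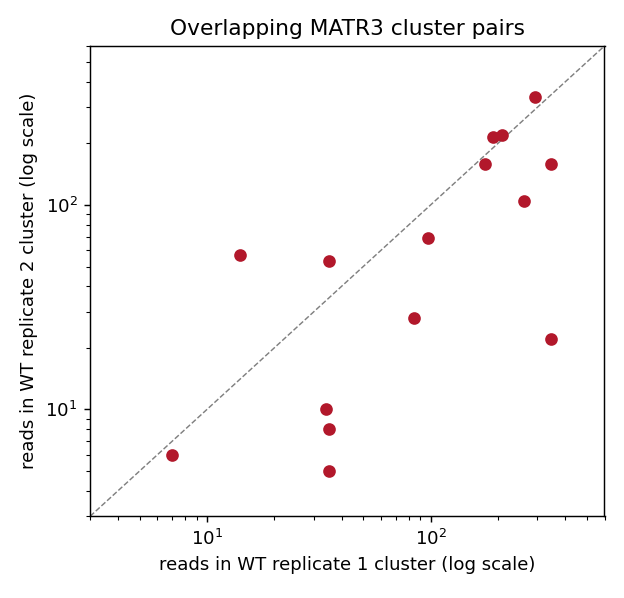
Reads of the overlapping MATR3 clusters in WT replicate 1 (x axis, log scale) and WT replicate 2 (y axis, log scale), 1 point for each of the 15 pairs, with the line of equal reads dashed. The 6 pairs with the most reads lie between 105 and 345 reads in both libraries, and the pair of 345 and 22 reads lies farthest below the line.

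MATR3 clusters were rich in T, as intronic clusters of these libraries were, with slightly more A and less C. T made up 38.3% and 41.3% of the MATR3 cluster bases of the WT libraries (replicate 1 first), against 40.4% and 42.1% in all intronic clusters. The means were 39.8% ± 2.06 (SD, n = 2) and 41.2% ± 1.22 (SD, n = 2), a difference within the spread between libraries. Within each library, T was lower in MATR3 than in all intronic clusters. A was 24.5% ± 1.21 in MATR3 and 21.6% ± 0.438 in all intronic clusters, and C was 24.9% ± 0.755 and 27.3% ± 0.627 (SD, n = 2 for each). Both differences had the same direction in each library and were larger than these SDs. The SDs measure the spread between the 2 libraries, not between clusters. The A share of single MATR3 clusters had quartiles of 19.4% and 30.6% in WT replicate 1. G was 10.8% ± 1.61 and 9.89% ± 0.153 (SD, n = 2), within the spread. Intronic clusters of the KO library had 33.2% T and 16.5% G.

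**Figure D4:**
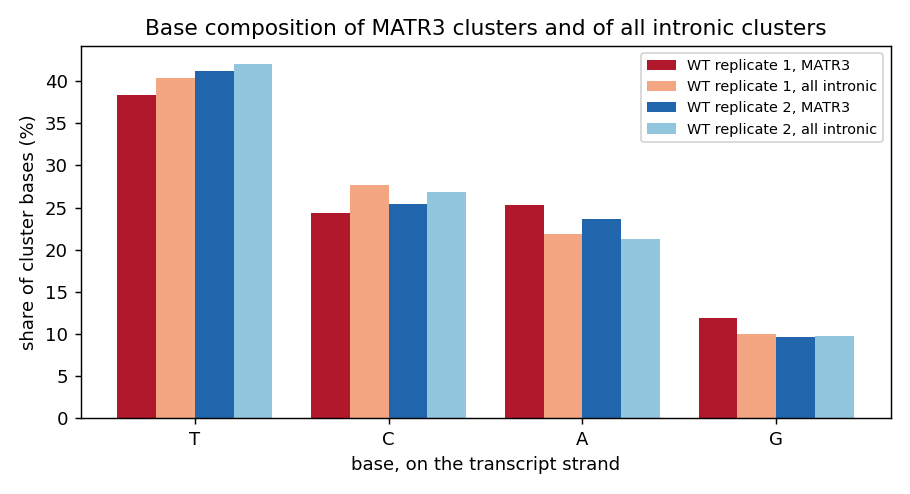
Share of each base (y axis, percent of cluster bases, transcript strand) in MATR3 clusters and in all intronic clusters of WT replicate 1 and WT replicate 2. T is the most frequent base in every set, A is higher in MATR3 clusters and C lower in both libraries.

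Short pyrimidine-rich words occurred in MATR3 clusters at shares close to those of other intronic clusters. A set of 4 words of 5 bases each was searched on the cluster strand only, and some of these words can overlap one another. At least one was present in 31 of 53 MATR3 clusters (58.5%, 95% Wilson interval 45.1 to 70.7%) of WT replicate 1 and in 15 of 26 (57.7%, 38.9 to 74.5%) of WT replicate 2. All intronic clusters held one in 56.9% and 58.8%, and KO intronic clusters in 26.1%. Taking the words singly, ATCTT was in 18.9% and 19.2% of MATR3 clusters, where all intronic clusters had 14.8% and 15.9%. TTCTT was in 22.6% and 30.8%, where all intronic clusters had 30.6% and 32.0%. The word TTTCT was in 30.2% and 38.5%, beside 32.4% and 33.1%. CTTTC, the last of the set, was in 5 of 53 MATR3 clusters of WT replicate 1 (9.43%, 4.10 to 20.3%) and 5 of 26 of WT replicate 2 (19.2%, 8.51 to 37.9%), beside 22.5% and 23.3%. The WT replicate 1 interval for this word lies below the intronic share, and that of WT replicate 2 includes it. Both intervals count the clusters of 1 gene as independent. Of the 15 stretches covered in both libraries, 7 held at least one word.

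Per length, MATR3 was among the most densely covered genes. It had 0.921 clusters per kb in WT replicate 1, more than 97.7% of 8691 genes with a cluster and a RefSeq length, and 0.452 per kb in WT replicate 2, more than 98.6% of 5817 genes. Among protein-coding genes of 40 to 80 kb, a class set after the values were seen, it ranked 2 of 1916 and 3 of 1368. The medians of that class were 0.0930 and 0.0406 clusters per kb. CTNNB1, the gene of beta-catenin, was above it in both libraries at 0.953 and 0.464, and NAP1L1, of a histone chaperone, in WT replicate 2 at 0.603. Cluster numbers also depend on how much of an RNA is present, which was not measured here.

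**Figure D5:**
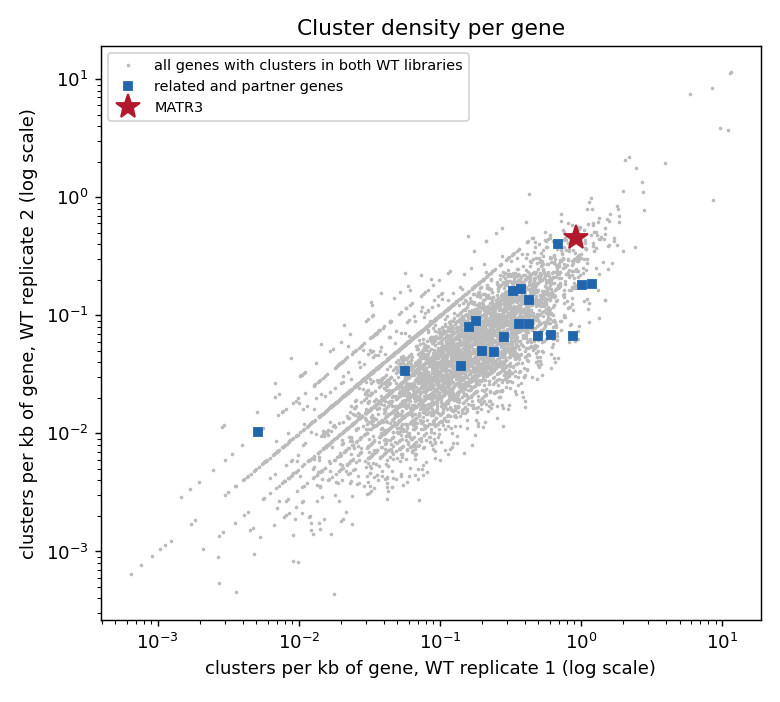
Clusters per kb of gene in WT replicate 1 (x axis, log scale) and WT replicate 2 (y axis, log scale) for genes with a cluster in both libraries and a RefSeq length, with MATR3 and the list of related and partner genes marked. MATR3 lies near the upper right end, at 0.921 and 0.452 per kb.

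Among 5386 genes with clusters in both WT libraries, the 5 with the pattern most like MATR3 were PKM, ZKSCAN8, SNHG1, ZNF121 and SPCS2. Likeness was the distance over 4 values, the log2 clusters per kb and log2 share of reads per kb in each WT library, and for PKM it was 0.371. PKM, which encodes pyruvate kinase, had 1.07 and 0.369 clusters per kb. ZKSCAN8, of a zinc finger protein, had 0.954 and 0.561, and SNHG1, a host of small nucleolar RNAs, 1.28 and 0.512. For SNHG1 these values rest on 5 and 2 clusters in a gene of 3.91 kb. Likeness used values per kb, not gene length or cluster number alone. ZNF121, also of a zinc finger protein, had 0.869 and 0.579, and SPCS2, of the signal peptidase complex, 1.07 and 0.437. No cluster of these genes was in the KO library, where only 2.86% of all protein-coding genes had one.

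Genes of related and partner proteins were covered too, mostly less densely than MATR3. The list held 27 genes, of which 24 had a cluster in WT replicate 1, 20 in WT replicate 2, 19 in both and 4 in KO. For all 20056 protein-coding genes the same shares were 41.3%, 28.1%, 26.2% and 2.86%. The list's median density was 0.331 and 0.0661 clusters per kb. SFPQ, a paraspeckle protein gene, had 1.01 per kb and HNRNPA2B1, of an hnRNP protein, 1.20 in WT replicate 1, above the 0.921 of MATR3. In WT replicate 2 they had 0.179 and 0.185 per kb, and no listed gene was above MATR3. ZNF638, a relative with the same type of zinc finger, had 44 and 14 clusters, or 0.426 and 0.136 per kb. CIZ1 had 0 and 1 cluster and RBM20, a splicing factor of heart muscle, 1 and 2.

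The polypyrimidine tract binding protein genes differed among themselves. PTBP1 had 0.875 clusters per kb in WT replicate 1 and 0.0673 in WT replicate 2, PTBP2 0.373 and 0.167, and PTBP3 0.142 and 0.0370. For PTBP1 these values rest on 13 clusters and on 1 cluster of 5 reads outside introns. PTBP2 had 38 and 17 clusters, and PTBP3 23 and 6. NONO, which pairs with SFPQ in paraspeckles, had 0.684 and 0.399, the listed gene nearest to MATR3 in WT replicate 2. CELF1, a splicing regulator, had 33 and 16 clusters. TARDBP and HNRNPL had no cluster in any library. PTBP2, HNRNPK and HNRNPM each had 1 cluster in the KO library.

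Genes flanking MATR3 had fewer clusters than MATR3. Over all genes with a cluster and a RefSeq length, the median was 4 clusters in WT replicate 1 and 2 in WT replicate 2. Within 200 kb, SIL1, a co-chaperone gene on the − strand, had 10 clusters (185 reads) in WT replicate 1 and 4 clusters (263 reads) in WT replicate 2. PAIP2, of a translation repressor, had 4 clusters with 119 reads and DNAJC18 1 cluster with 33 reads, all in WT replicate 1. STING1, the sensor adaptor of innate immunity named in the study's title and listed under an older symbol in the tables, had 1 coding cluster with 8 reads in WT replicate 1. None of these 3 had a cluster in WT replicate 2. No gene within this distance had one in KO, where 2.86% of all protein-coding genes did.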

How the data were processed

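PAR-CLIP libraries from 2 WT and 1 KO HAP1 samples were grouped by the labels' genotype. Per the submitters' processing notes, cutadapt 1.8.3, Bowtie 1.1.2 and builds hg38 and GRCh38.p5 were used; the cluster caller is not given in the sources used here. Clusters were called by the authors separately for each library. Per the file headers, the deposited tables hold whole-number counts of reads, distinct reads, converted positions and conversion events for each cluster, and fraction columns for reads with T-to-C changes and reads ending in G. The counts are not normalised, and the weakest cluster of each library had 5 reads and 2 converted positions.

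Clusters were taken by gene name; gene intervals and lengths came from RefSeq (GRCh38.p14), which matched 8691 of 9222 and 5817 of 6060 gene names of the WT libraries. Shares carry 95% Wilson intervals, which treat clusters, reads or T events as independent. No test was run, because 1 KO library and 2 WT libraries allow none between genotypes. Overlap counting was tested on simulated data. Named clusters are all overlapping WT pairs, the 3 with most reads per library and any outside introns, of which a selection is printed. Named genes are those overlapping or within 200 kb of MATR3, the 5 most alike and the partner list, plus CTNNB1, NAP1L1, WAC and ETF1, chosen after their values were seen, as were the limits of 100 and 20 reads and of 500 nt. Some items are not reported here. Members and lists were chosen with earlier results of these data known. Alternatives were stricter minimums of reads and converted positions, assignment by position, other overlap rules, trimmed ends, read weighting and leaving out each WT library. Software was Python 3.11.15, matplotlib 3.10.9, pandas 2.3.3, numpy 2.4.6 and scipy 1.17.1.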

Additional observations from a re-analysis of the deposited data

How the results depend on the processing

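Of 40 alternative values over 6 results, 33 stayed within the tolerance and 7 moved beyond it. The tolerance was 1.5 times for the cluster number, the Wilson interval for the share found again, and 1 SD between the WT libraries for the others. Requiring at least 3 converted positions per cluster left a mean of 25 MATR3 clusters and raised the MATR3 share of reads to 0.233%. Such clusters held 89.0% and 89.9% of MATR3 reads in the WT libraries, against 63.4% and 39.4% for all intronic clusters. The share of MATR3 clusters with a pyrimidine word rose to 75.7%, with no value for all intronic clusters given under this limit. Requiring 10 reads gave a word share of 59.98%. Removing 3 nt from each cluster end gave 46.7%, and all intronic clusters then had 49.4% and 50.9%. Leaving out each WT library gave 26 to 53 clusters. Leaving out the MATR3 cluster with the most reads gave a read share of 0.111%. The share of WT replicate 2 clusters found again ranged from 50% to 68.8% over the alternatives. Leaving out clusters inside SNHG4, an alternative added after seeing the data, gave 33 clusters, 0.121% of reads and 54.2% found again. No paired analysis was possible because the KO has no replicate number. The unknown sequencing depth, the single KO library with 842 clusters and overlapping genes limit these values.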
